A study of Mus musculus with 31 samples.

Results

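A set of 10 genes that are commonly used to mark astrocytes was followed here through the life of the mouse hippocampus: Gfap, Vim, Aqp4, Gja1, Gjb6, S100b, Aldh1l1, Aldoc, Etnppl and Fabp7. They were chosen by name, as every probe set whose gene symbol in the array annotation is 1 of these 10, a rule that uses no measured value. The names themselves were chosen with earlier results of these data known. This gave 25 probe sets out of 45037 mouse probe sets on the array, and 10 genes out of 18194. Of the 25, 24 passed the filter on low signals and only Aldh1l1 probe set 1424401_at did not. All 10 genes were among the 12844 genes tested.

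The samples were 31 hippocampi of male C57BL/6 mice, each hybridized to its own array. The mice were either Glud1 transgenic (Tg), carrying extra copies of the gene for the enzyme glutamate dehydrogenase 1 that are expressed in neurons of the central nervous system, or wild type (wt) mice of the same background. They were 10 days, 4.5 months, 9 months, 14.5 months or 20 months of age. Groups held 3 mice, but the wt group at 10 days held 4, which gives 6 mice at each adult age and 7 at 10 days, and the study's methods give 3 for every group, so that whether these 4 arrays are 4 mice is not known. The question behind the design was how hippocampal gene expression moves through development and aging, and whether lifelong extra glutamate dehydrogenase in neurons changes that course. Both probe sets of Glud1 lie in a region that the transgene lacks, and they differed between Tg and wt by -0.01 ± 0.04 and -0.03 ± 0.03 (log2 difference over the 5 ages ± SE), so that they check nothing about the genotype labels.

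Astrocytes are the glial cells that envelop synapses and blood vessels, take up glutamate and potassium, and exchange water and metabolites through channels and gap junctions. In rodents they arise from radial glia around birth and mature while synapses form. Their intermediate filaments, above all the GFAP protein, are known for increasing when the tissue is injured, and in many brain regions with old age. The 10 genes cover these roles. Gfap and Vim encode filament proteins, Aqp4 a water channel, Gja1 and Gjb6 the gap junction proteins connexin 43 and connexin 30, and S100b a calcium-binding protein. Aldh1l1, Aldoc and Etnppl encode enzymes of folate metabolism, glycolysis and phosphoethanolamine breakdown, and Fabp7 a fatty acid binding protein of radial glia and young astrocytes.

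Promoter sequences are shown for the filament pair Gfap and Vim, which by their brightest probe sets moved in opposite directions in development and again in aging, and for the connexin pair Gja1 and Gjb6, of which Gjb6 changed much more. Each is the stretch from 250 bases before to 50 bases after the start of the gene, read 5′ to 3′ on the strand of the gene, as RefSeq gives it for the mouse build GRCm38.p6. Capitals mark matches, on either strand, to 3 short motifs: TTCNNNGAA for STAT factors, TGANTCA for AP-1 and TATAAA for the TATA box. The windows are chr11:102897151-102897450 (minus strand) for Gfap, chr2:13574061-13574360 (plus strand) for Vim, chr10:56377050-56377349 (plus strand) for Gja1 and chr14:57133562-57133861 (minus strand) for Gjb6.
Gfap: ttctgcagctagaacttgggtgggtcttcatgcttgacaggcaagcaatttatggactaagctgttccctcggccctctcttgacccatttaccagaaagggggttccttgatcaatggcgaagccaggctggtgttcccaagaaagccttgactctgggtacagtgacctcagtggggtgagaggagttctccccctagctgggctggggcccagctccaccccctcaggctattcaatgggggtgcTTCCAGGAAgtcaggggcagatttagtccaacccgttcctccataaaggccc
Vim: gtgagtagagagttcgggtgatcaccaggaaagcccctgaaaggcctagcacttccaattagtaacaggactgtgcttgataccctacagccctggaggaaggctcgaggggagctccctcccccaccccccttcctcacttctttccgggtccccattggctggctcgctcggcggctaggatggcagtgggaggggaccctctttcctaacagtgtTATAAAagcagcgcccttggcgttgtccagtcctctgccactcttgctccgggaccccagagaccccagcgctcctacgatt
Gja1: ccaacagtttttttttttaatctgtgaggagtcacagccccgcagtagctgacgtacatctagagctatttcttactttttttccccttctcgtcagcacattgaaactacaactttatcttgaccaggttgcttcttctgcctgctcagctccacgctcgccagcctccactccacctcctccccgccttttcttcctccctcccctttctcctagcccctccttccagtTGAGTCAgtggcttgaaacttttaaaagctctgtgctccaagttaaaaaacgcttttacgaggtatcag
Gjb6: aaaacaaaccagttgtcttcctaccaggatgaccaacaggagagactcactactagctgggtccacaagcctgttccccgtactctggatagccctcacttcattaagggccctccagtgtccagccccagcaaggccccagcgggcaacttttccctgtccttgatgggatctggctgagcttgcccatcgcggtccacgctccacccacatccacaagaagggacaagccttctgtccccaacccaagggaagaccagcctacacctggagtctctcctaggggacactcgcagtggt

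Gfap held a match to the STAT letters that began 2 bases before its start, Vim a TATA box that began 32 bases before, and Gja1 an AP-1 match that began 19 bases before, while the window of Gjb6 held none of the 3. For 9 of the 10 genes 11 windows were searched, and Aqp4 was left out because the sequence of its chromosome is not printed here. STAT letters were in 2 of the 11 windows, against 8.3% of all 32851 promoter windows of this length. AP-1 letters were in 1, against 7.81%, and the TATA box in 1, against 13.6%. These matches describe letters in the windows and were not tested for any factor.

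Each gene is described by its probe set with the highest mean signal over the 31 arrays, and the other probe sets of the gene are given beside it. Levels are normalized signals, that is, deposited signals after quantile normalization over the arrays, on which the median probe set of each array had a signal of about 115. Changes are log2 differences with their standard error (SE), from a linear model in limma with 1 mean per genotype and age, and p-values were adjusted over all 26877 probe sets tested. A change was called at an adjusted p under 0.05. A signal of 1 probe set is not comparable with that of another, so that levels are compared only within a probe set.

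**Figure D1:**
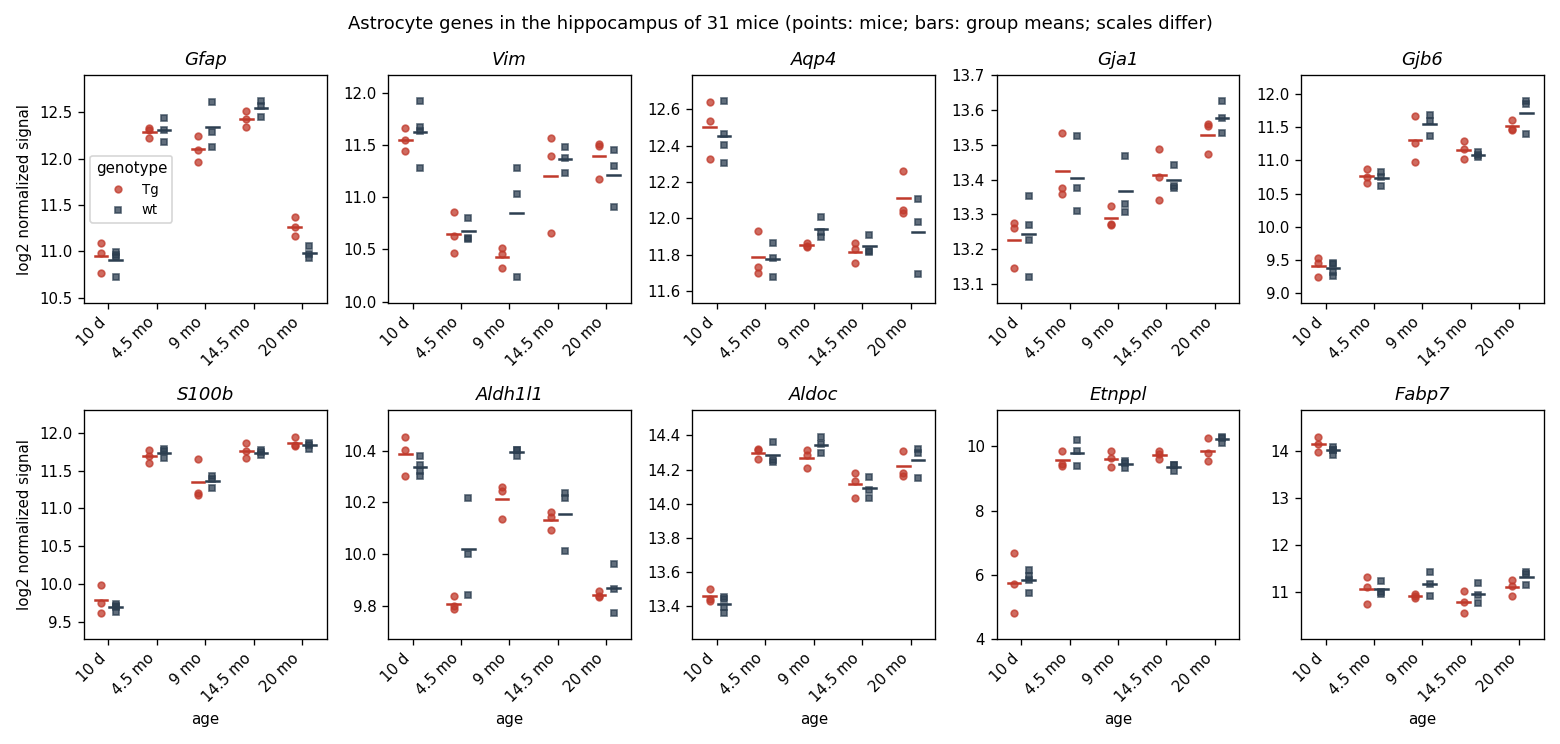
Log2 normalized signal of the 10 astrocyte genes (vertical axes, which differ between panels) at each age (horizontal axes) in 15 Tg mice (circles) and 16 wt mice (squares), with bars for the group means. Fabp7 is high only at 10 days, Etnppl is low only then, and Gfap, shown by 1426508_at, is at 20 months back near its level at 10 days.

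A few facts of the arrays bear on every change with age. The ratio of 3′ to 5′ probe sets of Gapdh, a sign of RNA quality, lay between -0.08 and 0.02 (log2) at 4.5 months and at or below -0.14 at every other age, and it was lower at 20 than at 14.5 months in every mouse (exact two-sided permutation test, p = 0.00216, adjusted p = 0.00583 over 25 tests). The same ratio of beta-actin lay between 0.71 and 0.96 at 9 months and at or below 0.55 at every other age. Ages were therefore also distinguished by properties of the RNA or arrays, and the part of these in each change was not tested. Array medians before normalization ran from 91.4 to 140, and arrays of 1 group correlated at 0.934 to 0.986. All 10 neuronal markers had a normalized signal of 1269 or more on every array. In a homogenized tissue, fewer astrocytes and less RNA per astrocyte cannot be told apart.

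From 10 days to 4.5 months all 10 genes changed, 6 upward and 4 downward. This count stands against a broad background, since 31.2% of the 12844 genes rose and 35.5% fell over the same interval. The median change of the 10 was 0.52 on the log2 scale, against -0.04 for all genes tested. In 9 of the 10 genes the mice of both ages did not overlap, as was so for 43.2% of all genes. Without quantile normalization the median probe set rose by 0.14 rather than by 0.01, and changes of that size depend on the scaling. Gja1, which is counted among the 6, went from 0.18 to -0.058 without the normalization. That shift was opposite in direction to the shift of the median probe set, and its cause was not tested.

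The largest increase was that of Etnppl, which encodes ethanolamine-phosphate phospho-lyase, the enzyme that breaks down phosphoethanolamine. Its normalized signal was 28.1 to 102 at 10 days (median 57.2), under the median probe set of the array in all 7 mice, and 667 to 1166 at 4.5 months (median 809). No adult mouse of any age fell into the range of the young mice. Etnppl rose by 3.90 ± 0.19 on the log2 scale (adjusted p = 6.19e-16), and only 6 of the 12844 genes rose at least as far. With 50 added to every signal before log2, which weighs low signals less, the increase was 3.02 ± 0.13. A second probe set, 1431406_at, went from a median of 7.74 to a median of 108 and rose by 4.08 ± 0.63, but by only 1.47 ± 0.21 with 50 added, so that its size rests on signals near 0. Detection calls were not used here, so that whether Etnppl lay above background at 10 days is unknown, and its fold change is not exact.

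Fabp7, the lipid carrier of radial glia, showed the mirror image. Its signal was 15340 to 20024 at 10 days (median 16619) and 1729 to 2562 at 4.5 months (median 2134), with no overlap. It fell 7.99-fold, with an SE of 0.09 on the log2 scale and an adjusted p of 9.00e-21, and 31 of 12844 genes fell at least as far. No further decrease was called, as the order of the ages after 10 days (20 months, 4.5, 9 and 14.5 months) held no called difference between neighbors. Etnppl likewise held its adult level, with no called difference between neighbors from 20 through 4.5, 14.5 and 9 months. For Etnppl 20 months exceeded 9 months (0.52 ± 0.20, adjusted p = 0.0396), but its rise from 14.5 to 20 months (0.50 ± 0.20, adjusted p = 0.0542) did not pass.

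S100b, which encodes the calcium-binding protein S100B, had the next largest increase after Etnppl by its brightest probe set. The 7 mice at 10 days had signals of 790 to 1015 (median 840) and the 6 mice at 4.5 months 3109 to 3527 (median 3393). All mice at 4.5 months lay above every mouse at 10 days, and the increase was 1.97 ± 0.06 (adjusted p = 3.58e-21). Probe set 1419383_at of S100b rose by 0.68 ± 0.10 over the same interval, from a median of 592 to a median of 929.

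Gfap, which encodes the filament protein that defines astrocytes in histology, had signals of 1692 to 2182 at 10 days (median 1986) and 4646 to 5568 at 4.5 months (median 5085). There was no overlap between the ages, and the increase was 1.37 ± 0.07 (adjusted p = 1.20e-16). Of the other Gfap probe sets, 1426509_s_at rose by 1.36 ± 0.08, and 1440142_s_at had a change of 0.23 ± 0.12 that was not called (adjusted p = 0.105). Vim, which encodes vimentin, the filament of radial glia and immature astrocytes and also of vascular and meningeal cells, went the other way. Its signals were 2479 to 3869 at 10 days (median 3165) and 1418 to 1854 at 4.5 months (median 1576), again with no overlap. Vim fell by 0.92 ± 0.15 (adjusted p = 7.49e-06), and its other probe sets fell by 1.15 ± 0.15 and 1.41 ± 0.15. Nes, which encodes nestin, the filament of neural stem cells, had a change of -0.15 ± 0.26 that was not called.

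The connexins differed widely in the size of their changes. Gjb6 went from 605 to 738 (median 693) at 10 days to 1572 to 1877 (median 1726) at 4.5 months, with no overlap, and rose by 1.36 ± 0.09 (adjusted p = 5.22e-14). The change of Gja1 was 0.18 ± 0.04 (adjusted p = 5.68e-04), from 8907 to 10465 at 10 days to 10166 to 11872 at 4.5 months with overlapping mice, but without quantile normalization it was -0.058 ± 0.05 and not called, and as the mean over its probe sets it was 0.12 ± 0.09 and not called, so that no direction is given for Gja1. Its probe sets also disagreed: 1415800_at, 1438650_x_at and 1438945_x_at rose by 0.27 ± 0.07, 0.53 ± 0.20 and 0.27 ± 0.06, while 1415801_at fell by 0.79 ± 0.13. Of the 7 genes with more than 1 tested probe set, only Gja1 had probe sets called in both directions here, against 12.9% of all 6184 such genes. Gjb2, which encodes connexin 26, another connexin of astrocytes, rose by 0.95 ± 0.39 (adjusted p = 0.0381).

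Aqp4, the water channel of astrocyte endfeet, was highest at 10 days, with signals of 5065 to 6401 (median 5656) against 3276 to 3905 (median 3461) at 4.5 months. No mouse overlapped between the ages. Aqp4 fell by 0.70 ± 0.06 (adjusted p = 7.91e-11), and its other probe sets fell by 0.90 ± 0.10 and 0.43 ± 0.12. By probe set 1434449_at, Aqp4 at 10 days exceeded each later age, and after 10 days its order was 20, 9, 14.5 and 4.5 months with no called difference between neighbors. The other probe sets had another course. Aqp4 1425382_a_at rose by 0.49 ± 0.10 from 4.5 to 9 months and fell by 0.65 ± 0.10 to 14.5 months, while 1447745_at rose by 0.59 ± 0.12 from 9 to 14.5 months, where its median of 681 lay above that of 584 at 10 days (difference 0.25 ± 0.12, adjusted p = 0.070).

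Aldh1l1, which encodes 10-formyltetrahydrofolate dehydrogenase and is widely used to label all astrocytes, also decreased. Its signal was 1263 to 1402 at 10 days (median 1299) and 883 to 1190 at 4.5 months (median 916), without overlap, and it fell by 0.45 ± 0.05 (adjusted p = 3.20e-08). Aldoc, which encodes the brain form of the glycolytic enzyme aldolase, rose from 10546 to 11586 (median 11127) to 19427 to 21008 (median 20005). The increase of Aldoc was 0.86 ± 0.03 (adjusted p = 9.28e-19), and its second probe set rose by 0.67 ± 0.07. Thus among the 3 enzymes of the set the folate enzyme fell while the glycolytic enzyme and the phospho-lyase rose.

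**Figure D2:**
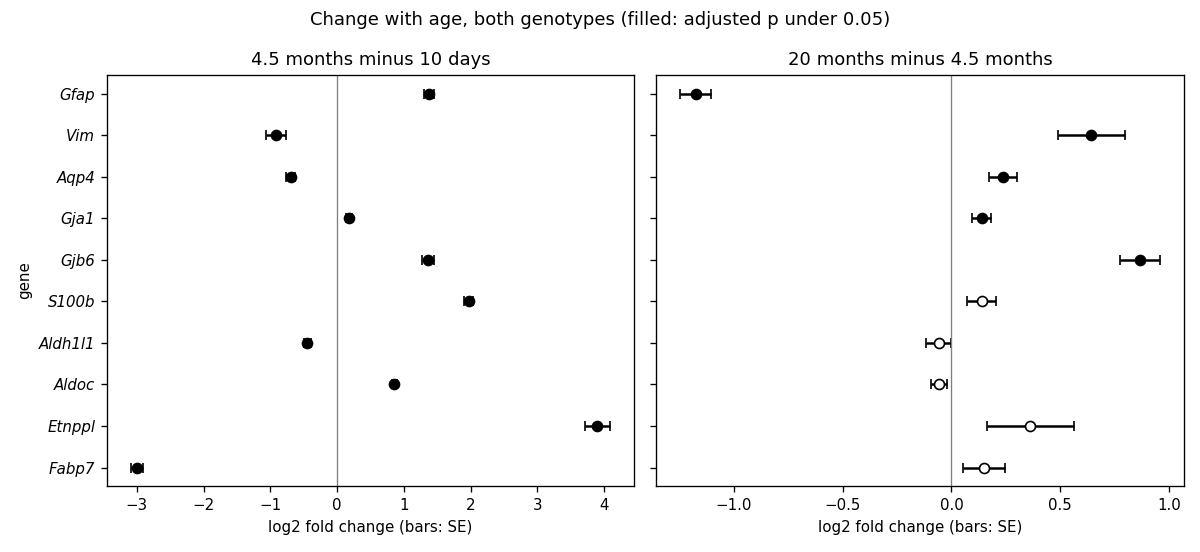
Log2 fold change (horizontal axes, with SE) of the 10 astrocyte genes (vertical axis) from 10 days to 4.5 months, left, and from 4.5 to 20 months, right, as the mean of Tg and wt mice. Filled circles have an adjusted p under 0.05, which held for all 10 on the left and for 5 on the right, and the scales of the panels differ.

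From 4.5 to 20 months 5 of the 10 genes changed, 4 upward (Gjb6, Vim, Aqp4 and Gja1) and 1 downward (Gfap), where 22.4% of all genes rose and 19.9% fell. The median change was 0.14 for the 10 genes and 0.03 for all genes tested. In Gfap, Vim, Gjb6 and S100b, 4 of the 10, the mice of both ages did not overlap, as was so for 24% of all genes. Gjb6 rose furthest, by 0.87 ± 0.09 (adjusted p = 6.76e-09), to signals of 2714 to 3809 at 20 months (median 2983) that all exceeded those at 4.5 months. Its course was not even. It increased to 9 months (0.68 ± 0.09), decreased to 14.5 months (-0.31 ± 0.09) and increased again to 20 months (0.49 ± 0.09), and each of these steps was called, while 20 and 9 months did not differ by the test (adjusted p = 0.104).

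Vim rose by 0.64 ± 0.15 from 4.5 to 20 months (adjusted p = 0.00161), and its other probe sets by 0.87 ± 0.15 and 0.98 ± 0.16. The signals at 20 months were 1916 to 2917 (median 2653), all above those at 4.5 months, and the called step between neighboring ages lay between 9 and 14.5 months (0.65 ± 0.15, adjusted p = 0.00118), as it did for 1456292_a_at (0.54 ± 0.16), which also rose from 4.5 to 9 months (0.42 ± 0.16). For Vim 1438118_x_at the change from 9 to 14.5 months was 0.27 ± 0.15 and not called. At 9 months the mice were spread widely, with 1462, 1278 and 1401 in Tg and 1207, 2476 and 2089 in wt mice. At 14.5 months they had 2687, 3037 and 1612 in Tg and 2651, 2401 and 2860 in wt mice. The Tg mouse at 1612 and the wt mouse at 2401 lay within the range of the 9 month mice.

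Markers of mural cells and fibroblasts varied with Vim from mouse to mouse. The list holds 9 genes, among them Pdgfrb, Acta2, Dcn and the collagen genes Col1a1, Col1a2 and Col3a1, all 9 were tested, and none was at 0 on any array. Their summed signal ran from 11462 to 19147 at 10 days, 8584 to 10312 at 4.5 months, 5497 to 11081 at 9 months, 7837 to 11930 at 14.5 months and 8111 to 14217 at 20 months. In 4 of the 5 ages the mouse with the lowest Vim was also the mouse with the lowest mean log2 signal of this list, the exception being 10 days. Between 4.5 months and 10 days 6 of the 9 markers fell and none rose, where 35.5% of all genes fell and 31.2% rose. Between 20 and 4.5 months 1 rose and none fell, where 22.4% of all genes rose and 19.9% fell. Ependymal markers, another source of vimentin, rose from 4.5 to 20 months in 4 of 6 genes, and their mean log2 signal was 6.15 to 7.25 at 4.5 months and 7.90 to 8.41 at 20 months (exact two-sided permutation test, p = 0.00216, the smallest that 6 against 6 mice allow, adjusted p = 0.00583). The part of these cell types in the changes of Vim was not tested.

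**Figure D3:**
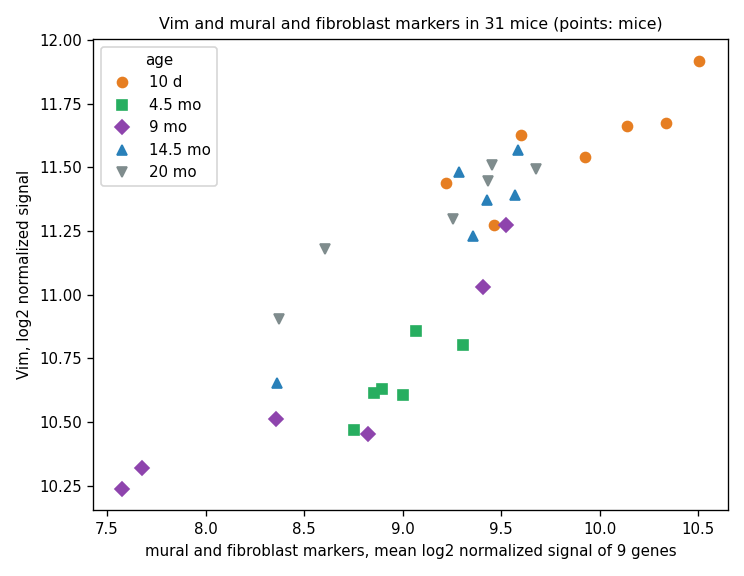
Log2 normalized signal of Vim (vertical axis) against the mean log2 normalized signal of 9 mural and fibroblast markers (horizontal axis) in 31 mice, with a symbol for each age. The mice at 10 days reach furthest to the upper right but overlap older mice on both axes. At 9 months the mice reach from the lowest values of both, 7.58 for the markers, to 9.52.

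The course of Gfap with aging was uneven. Its signal stayed high through middle age, at 4003 to 6287 at 9 months (median 4652) and 5207 to 6305 at 14.5 months (median 5734), and then dropped. At 20 months the signals were 2457, 2651 and 2291 in Tg and 1946, 2131 and 2006 in wt mice, all below every mouse at 4.5, 9 and 14.5 months and overlapping the range at 10 days. Gfap fell by 1.36 ± 0.07 from 14.5 to 20 months (adjusted p = 5.88e-15), and 55 of 12844 genes fell at least as far. From 4.5 to 20 months it fell by 1.18 ± 0.07 (adjusted p = 7.58e-14), by 1.02 ± 0.10 in Tg and by 1.33 ± 0.10 in wt mice. In the order of its levels 14.5 months exceeded 4.5 months (0.19 ± 0.07, adjusted p = 0.041), 4.5 and 9 months did not differ by the test, and both exceeded 20 months, which exceeded 10 days (0.20 ± 0.07, adjusted p = 0.0146). These values are those of the brightest probe set. In neither other probe set of Gfap was 14.5 months called against 4.5 or 9 months. For 1426509_s_at these differences were 0.14 ± 0.08 and 0.16 ± 0.08.

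This decrease was not shared by all 3 probe sets of Gfap. Probe set 1426509_s_at followed 1426508_at, falling by 1.19 ± 0.08 from 14.5 to 20 months, from a median of 3380 to a median of 1456. Probe set 1440142_s_at instead rose by 0.42 ± 0.13 over the same interval (adjusted p = 0.0109), from a median of 1085 to a median of 1436, and by 0.59 ± 0.13 from 4.5 to 20 months (adjusted p = 3.88e-04). In this probe set 20 months also exceeded 10 days, by 0.81 ± 0.12 (adjusted p = 1.48e-06). Within each array the log2 signal of 1426508_at exceeded that of 1440142_s_at by 1.97 to 2.78 at 4.5 months and by 2.19 to 2.61 at 14.5 months, but by 0.36 to 0.82 at 20 months and by 0.97 to 1.57 at 10 days. The difference between 1426508_at and 1426509_s_at stayed between 0.52 and 0.88 at every age. A direction for Gfap between 14.5 and 20 months therefore depends on the probe set, and the mean over the 3 fell by 0.71 ± 0.08. Which transcripts or parts of Gfap each probe set reads was not examined here. Of the 7 genes with several tested probe sets Gfap and Aqp4 had probe sets called in both directions between these ages, against 8.25% of all such genes.

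**Figure D4:**
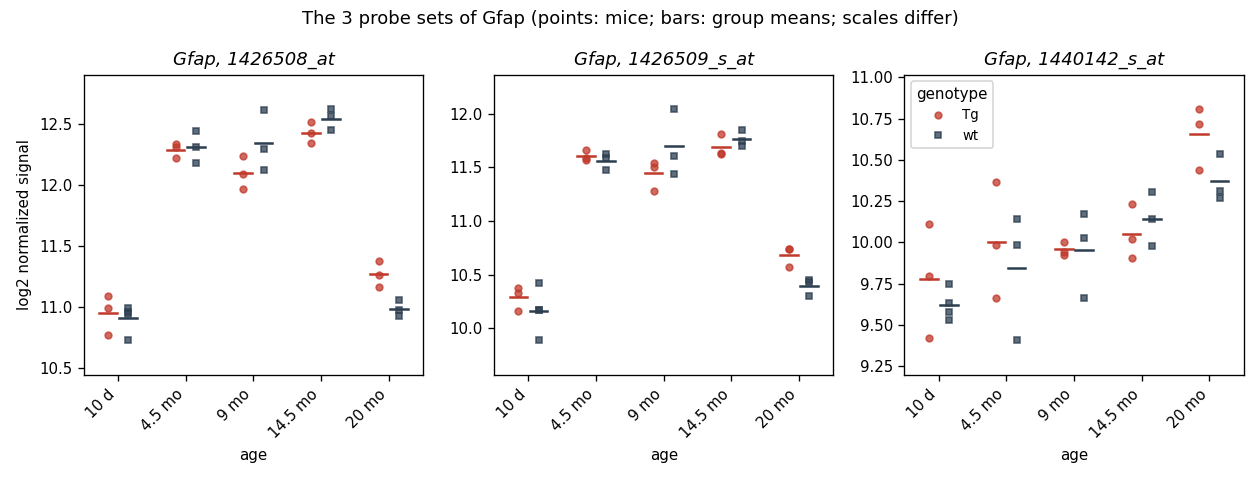
Log2 normalized signal (vertical axes, which differ between panels) of the 3 probe sets of Gfap at each age (horizontal axes) in Tg (circles) and wt mice (squares), with bars for the group means. From 14.5 to 20 months the signals of 1426508_at and 1426509_s_at drop while those of 1440142_s_at rise.

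The genes whose pattern over the 10 group means was closest to that of Gfap 1426508_at were Zfp385a, Trp53i11 and Tubb4a, with root mean square differences of 0.15, 0.17 and 0.17 between centered log2 means. As this choice fixes, all 3 were lower at 20 than at 14.5 months, with changes of -1.27 ± 0.13, -1.27 ± 0.09 and -1.26 ± 0.05. Tubb4a encodes a tubulin of neurons and oligodendrocytes. Slc17a7, which encodes the vesicular glutamate transporter of excitatory neurons, fell by 1.92 ± 0.07 over the longer interval from 4.5 to 20 months. It is 1 of the 10 neuronal markers, was picked after its value was seen, and does not stand for the list. The mean log2 signal of the list had medians of 13.40 at 4.5 months, 13.37 at 14.5 months and 13.05 at 20 months. The change of the Gapdh 3′ to 5′ ratio between 14.5 and 20 months was -0.06, and that of beta-actin was 0.16, and their part in the drop of Gfap was not tested.

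Aqp4 rose slightly from 4.5 to 20 months (0.24 ± 0.07, adjusted p = 0.00434), to signals of 3315 to 4902 (median 4204) that overlapped those at 4.5 months. From 14.5 to 20 months it rose by 0.19 ± 0.07, and probe set 1425382_a_at rose by 0.53 ± 0.10 while 1447745_at fell by 0.37 ± 0.12. Gja1 rose by 0.14 ± 0.04 (adjusted p = 0.012) to 11376 to 12631 at 20 months, and here without quantile normalization the increase was 0.25 ± 0.05. Of the other Gja1 probe sets 1415801_at rose by 1.48 ± 0.14 and 1438945_x_at by 0.27 ± 0.06, and the remaining 3 were not called. For Gja1 the increase from 4.5 to 20 months thus had the same sign in each called probe set.

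The other 5 genes did not pass the test between 4.5 and 20 months. The changes were 0.14 ± 0.06 for S100b, -0.06 ± 0.06 for Aldh1l1, -0.06 ± 0.04 for Aldoc, 0.36 ± 0.20 for Etnppl and 0.15 ± 0.10 for Fabp7. S100b probe set 1419383_at, however, rose by 0.91 ± 0.11, and all 6 mice at 20 months lay above all at 4.5 months in both S100b probe sets. S100b also passed the test as the mean over its probe sets, and its brightest probe set passed in a fit of these ages alone. Of the 5 genes, S100b, Aldh1l1 and Aldoc had called steps at intermediate ages by their brightest probe sets. Etnppl and Fabp7 had no called change among 4.5, 9 and 14.5 months. Aldh1l1 rose by 0.39 ± 0.06 to 9 months (adjusted p = 1.91e-06), then fell by 0.16 ± 0.06 to 14.5 months and by 0.29 ± 0.06 to 20 months. The level of Aldh1l1 was thus highest at 10 days and 9 months, which did not differ by the test, and lowest at 4.5 and 20 months, which also did not differ by it.

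The steps into and out of 9 months differed between probe sets of a gene. The count of genes called from 4.5 to 9 months was 3 (Gjb6 and Aldh1l1 higher, S100b lower), with 20.6% of all genes higher and 24.3% lower, and only Gjb6 had no overlap, against 18% of all genes. From 9 to 14.5 months it was 6, of which Gfap, Vim and S100b were higher and Gjb6, Aldh1l1 and Aldoc lower, with 26.3% and 21.9% of all genes, and S100b and Aldoc had no overlap, against 23.6%. The call of Gfap there held neither in its other probe sets nor without quantile normalization. S100b was called there by 1434342_at (0.40 ± 0.06), but 1419383_at fell by 0.34 ± 0.11, and the mean over both was 0.03 ± 0.07 and not called. S100b fell by 0.36 ± 0.06 at 9 months (signals 2322 to 3206, median 2581), but its probe set 1419383_at rose by 0.98 ± 0.11 (signals 1491 to 2826, median 1789), so that no direction is given for S100b into or out of 9 months. Gja1 also had probe sets called in both directions from 4.5 to 9 months, with 1438650_x_at falling by 1.14 ± 0.21 and 1415801_at rising by 0.66 ± 0.14. Probe sets called in both directions were thus seen in 2 of the 7 genes from 4.5 to 9 months (14.5% of all such genes) and in 3 of the 7, Aqp4, Gja1 and S100b, from 9 to 14.5 months (17.6%). The 9 month arrays are the ones on which the beta-actin 3′ to 5′ ratio was highest, and its part in these splits was not tested.

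From 14.5 to 20 months 7 of the 10 genes were called, where 18.3% of all genes rose and 15.3% fell. By their brightest probe sets Aqp4, Gja1, Gjb6, Aldoc and Fabp7 were higher at 20 months and Gfap and Aldh1l1 lower. Probe sets of Aqp4 and of Gfap were called in both directions here, so that their direction depends on the probe set. As the mean over probe sets Aqp4 and Aldoc were not called. Gfap, Gjb6 and Aldh1l1 had no overlap between these ages, against 23.4% of all genes. Fabp7 rose by 0.33 ± 0.10 (adjusted p = 0.00989), from 1526 to 2362 to 1944 to 2747, which is small beside its decrease after 10 days. Aldoc fell by 0.20 ± 0.04 from 9 to 14.5 months and rose by 0.13 ± 0.04 to 20 months, but its second probe set showed neither change (0.01 ± 0.08 and 0.01 ± 0.08).

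No astrocyte gene was called between Tg and wt mice. None of the 10 was called at any of the 5 ages, in the mean over the ages, or in the difference between the genotypes in development or in aging, by limma's test with adjusted p. Among all genes, 0.794% were higher and 2.2% lower in Tg mice at 9 months, and in the other comparisons of genotype the largest shares were 0.0311% higher at 20 months, 0.0156% lower over the ages, and 0.00779% higher at 10 days, lower at 20 months and lower in the difference in aging. At an unadjusted p under 0.05 the counts of the 10 genes were 0 at 10 days (5.65% of all genes), 1 at 4.5 months (6.73%), 2 at 9 months (18.1%), 0 at 14.5 months (0.942%) and 1 at 20 months (4.84%). They were 1 in the mean over the ages (8.5%) and 1 each in the differences in development (6.73%) and in aging (6.51%). The differences of the 10 ran from -0.11 to 0.13 at 10 days and from -0.42 to 0.17 at 9 months on the log2 scale. At 10 days the groups overlapped in all 10 genes, while 6.05% of all genes had no overlap.

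Gfap came nearest to a genotype difference in old age. At 20 months all 3 Tg mice lay above all 3 wt mice in the values given above, as 12.2% of all genes did in either direction, with a Tg minus wt difference of 0.28 ± 0.10 and an unadjusted p of 0.00929 that did not hold after adjustment (adjusted p = 1.00). Probe set 1426509_s_at had 0.29 at 20 months and did not overlap either, and 1440142_s_at had overlapping mice. At 9 months the difference of Gfap was -0.24 ± 0.10 (adjusted p = 0.176), with 4003, 4841 and 4369 in Tg and 4462, 6287 and 5021 in wt mice. The difference between the genotypes in the change from 4.5 to 20 months was 0.31 ± 0.14 (adjusted p = 0.805).

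Aldh1l1 lay lower in Tg mice at 4.5 and 9 months. At 4.5 months the signals were 883, 891 and 915 in Tg and 1025, 1190 and 917 in wt mice, and at 9 months 1226, 1212 and 1126 in Tg and 1331, 1355 and 1353 in wt mice. The groups did not overlap at either age, as was so for 10.7% and 14.3% of all genes. The differences were -0.21 ± 0.08 (adjusted p = 0.736) and -0.18 ± 0.08 (adjusted p = 0.206), and neither was called. Aqp4 1434449_at also had no overlap at 9 months, with 3675 to 3728 in Tg and 3821 to 4118 in wt mice. Its difference of -0.09 ± 0.09 was not called (adjusted p = 0.631), and the other Aqp4 probe sets overlapped there. Vim at 9 months had a difference of -0.42 ± 0.22 (adjusted p = 0.297). Without wt mouse 1 it became -0.72 ± 0.20 (adjusted p = 0.0414), in a fit that called 421 genes at that age. With all mice 102 genes were higher and 282 lower. Mural and fibroblast markers were lowest in wt mouse 1 (mean log2 signal 7.58), with Tg mouse 2 next at 7.68. The other wt mice had 9.52 and 9.41, and the other Tg mice 8.36 and 8.82. The part of these cells in the difference of Vim was not tested. Etnppl at 14.5 months had 773, 867 and 925 in Tg and 603, 688 and 685 in wt mice, without overlap, as did 10.3% of all genes, and its difference of 0.38 ± 0.28 was not called. Gja1 probe set 1415801_at had a Tg minus wt difference of 0.69 at 9 months (adjusted p = 0.0504), and the probe set that describes Gja1 did not differ there.

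**Figure D5:**
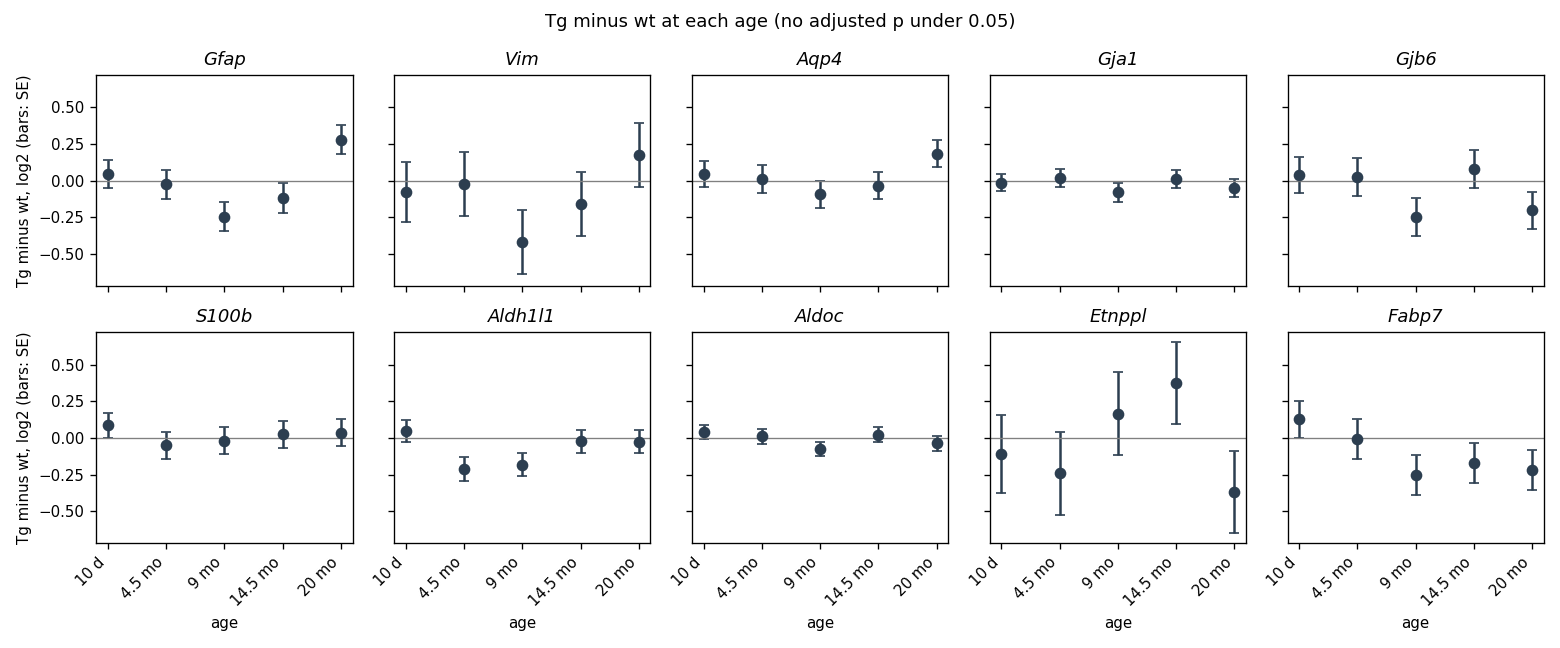
Tg minus wt difference in log2 normalized signal (vertical axes, the same in each panel, with SE) of the 10 astrocyte genes at each age (horizontal axes). No difference has an adjusted p under 0.05, and Gfap goes from -0.24 at 9 months to 0.28 at 20 months.

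Further astrocyte genes were mostly higher at 4.5 months than at 10 days. A list of 49 further astrocyte genes had 47 tested, of which 33 rose and 9 fell from 10 days to 4.5 months, with a median of 0.44, where 31.2% of all genes rose and 35.5% fell. The smallest p-values were those of S1pr1, a sphingosine phosphate receptor, which rose by 1.61 ± 0.07, and of Clu, which encodes the secreted chaperone clusterin and rose by 0.97 ± 0.04. The glutamate transporters diverged, as Slc1a2 rose by 0.57 ± 0.04 and Slc1a3 fell by 0.31 ± 0.08. Glul, which encodes glutamine synthetase, rose by 0.33 ± 0.06, Kcnj10, the potassium channel Kir4.1, rose by 0.58 ± 0.11, and Sox9, the transcription factor of astrocyte fate, had a change of 0.25 ± 0.12 that was not called. From 4.5 to 20 months 11 of the 47 rose and 17 fell, with a median of -0.02, where 22.4% and 19.9% of all genes did so. Atp1b2, a sodium pump subunit, fell by 0.85 ± 0.05 and Daam2, a formin, by 1.31 ± 0.11, Slc1a2 fell by 0.21 ± 0.04, Sox9 fell by 0.31 ± 0.12, and Glul rose by 0.36 ± 0.06.

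Genes that reactive astrocytes are known to raise had 9 risen and none fallen among 29 tested from 4.5 to 20 months, a share of 31% against 22.4% of all genes that rose and 19.9% that fell, with a median of 0.37 against 0.03 for all genes. The smallest p-values were those of Tm4sf1, which rose by 0.86 ± 0.13, and of Serpina3n, a protease inhibitor and common marker of reactive astrocytes, which rose by 0.51 ± 0.10. Over the same interval 6 of 9 microglial markers rose and none fell, and several of the listed genes are also expressed by microglia or endothelium, whose part was not tested. In development, where 31.2% of all genes rose and 35.5% fell, the same list had 9 risen and 9 fallen. The list of 16 tested genes of radial glia and neural stem cells had 4 risen and 7 fallen in development. There Tnc, which encodes the matrix protein tenascin C, fell by 2.97 ± 0.14 beside Fabp7, and Id4, a regulator of neural progenitors, rose by 1.19 ± 0.07.

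The families of the single genes gave a mixed picture. Among all genes 31.2% rose and 35.5% fell in development. The fatty acid binding protein genes Fabp7, Fabp3 and Fabp5, the 3 that were tested, all fell in development, Fabp3 by 1.45 ± 0.06 and Fabp5 by 0.80 ± 0.05. From 4.5 to 20 months Fabp3 rose by 0.41 ± 0.06. Fabp5 fell further by 0.58 ± 0.05 over that interval, when Fabp7 had no called change. Among 10 tested S100 genes, S100b included, 2 rose and 5 fell in development. S100a10, whose product binds annexin 2, fell by 2.71 ± 0.14 while S100b rose. Of 18 tested glycolytic and related genes, Aldoc included, 13 rose and 3 fell. Aldoa, the ubiquitous aldolase, rose by 0.48 ± 0.03. Of 13 tested folate genes, Aldh1l1 included, 8 fell and 2 rose, and Aldh1l2, the mitochondrial relative of Aldh1l1, fell by 1.46 ± 0.15. Of 8 tested genes of phosphoethanolamine metabolism, Etnppl included, 6 rose and 1 fell. The 1 that fell was Phykpl, the closest relative of Etnppl, by 0.49 ± 0.19.

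Similar patterns were also sought for Aqp4, Etnppl and Fabp7, by the same measure over the 10 group means. Closest to Etnppl were Gm11681, Mag and Il33, at 0.28, 0.38 and 0.40. Mag encodes a myelin protein of oligodendrocytes and rose by 3.58 ± 0.13 from 10 days to 4.5 months, and Il33 encodes the cytokine interleukin 33 and rose by 2.94 ± 0.09. Closest to Fabp7 were S100a10, Nrep and Vash2, at 0.20, 0.22 and 0.26, with changes from 10 days to 4.5 months of -2.71 ± 0.14, -2.75 ± 0.11 and -2.83 ± 0.25. Closest to Aqp4 were Nif3l1, Tmx1 and Eif1ax, at 0.051, 0.052 and 0.056, with changes of -0.67 ± 0.08, -0.72 ± 0.06 and -0.67 ± 0.06 over the same interval.

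Over all 10 pairs of ages, 68 of 100 comparisons of an astrocyte gene were called, 45 with the older age higher and 23 with it lower. Against 10 days, 8 genes were called at 9 months (29.7% of all genes higher and 37.5% lower), 9 at 14.5 months (30.1% and 33%) and 9 at 20 months (29.9% and 33%). Between 4.5 and 14.5 months 5 were called (14.9% and 16.6%), and between 9 and 20 months 6 (21.7% and 17.9%). Gjb6 was at its lowest at 10 days and, without a called difference from 9 months, at its highest at 20 months. Fabp7 was highest at 10 days, as was Aqp4 by 2 of its 3 probe sets. Both probe sets of S100b were lowest at 10 days and differed in the age of their highest level, and Gfap 1426508_at was highest at 14.5 months and lowest at 10 days, with 20 months next to lowest.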

How the data were processed

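Total RNA of hippocampi was hybridized to 31 Affymetrix mouse arrays, each taken as 1 mouse here. The values used are the signal intensities that the authors deposited, linear MAS5 intensities per probe set per the labels, whose version and settings are not given in the sources used here. The methods describe RMA values, SAM, EDGE and Cyber-T, which were not used here, and detection calls were not used here. No value was at or below 0.

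Of 45101 probe sets, 64 controls were set aside. The remaining intensities were turned to log2 and quantile normalized, and 26877 probe sets above their array's median on at least 3 arrays were tested. Gene symbols came from the array annotation (34945 probe sets with 1 symbol, 932 with several, 9160 with none), and 34741 were matched by gene identifier. Limma 3.58.1 in R 4.3.3 fitted 1 mean for each of the 10 groups over all arrays, with trend and robust moderation, with Benjamini-Hochberg adjustment of p-values across these probe sets. Samples were grouped by the genotype and age in the labels. Array quality was compared by exact two-sided permutation tests in SciPy 1.17.1. The model was tested on simulated data. The number of arrays limits the precision.

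All 10 genes and all their probe sets are named, together with the 3 genes closest in pattern to Gfap, Aqp4, Etnppl and Fabp7, the 2 genes of smallest p in development or aging of each related list where named, and direct relatives of the 10. Slc17a7 and the list members named without values were chosen after their values were seen. The 10 genes and all lists were chosen with earlier results of these data known. Alternatives were no quantile normalization, an offset of 50, no filter, a filter at the 60th percentile, plain moderation, a replicate block, fits of the ages compared alone, the mean over probe sets, a fold change of 1.3 with an adjusted p of 0.01, and leaving out each mouse.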

Additional observations from a re-analysis of the deposited data

Results flagged for a closer look

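In 60 checks of a gene at an age or in a group for a single mouse far from the others, 3 mice stood apart, and chance alone would mark about 1 in 20. Vim in Tg mouse 3 at 14.5 months had a normalized signal of 1612, with the nearest of the other 5 mice at 2401, and the gap made up 0.629 of the whole range. The same mouse had the lowest mural and fibroblast markers at 14.5 months, with a mean log2 signal of 8.36 where the next mouse had 9.28. Gja1 in wt mouse 3 at 9 months had a signal of 11330, with the nearest mouse at 10303, and its gap made up 0.689 of the range. S100b in Tg mouse 2 at 10 days had a signal of 1015, with the nearest of the other 6 mice at 860, and its gap made up 0.662 of the range.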

How the results depend on the processing

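From 10 days to 4.5 months 10 genes were called, but 9 without quantile normalization, with the mean over probe sets and at a fold change of 1.3, the gene lost being Gja1. The counts of 0 between Tg and wt held under each alternative run, except 1 at 9 months without wt mouse 1 (range 0 to 1 over single mice left out), which was Vim. Without quantile normalization 5 genes were called from 4.5 to 9 months in place of 3. At a fold change of at least 1.3 with an adjusted p of at most 0.01, 3 genes were called from 4.5 to 20 months (5 before), 2 from 9 to 14.5 months (6 before), 2 from 14.5 to 20 months (7 before) and 45 over all pairs of ages (68 before), by construction a stricter call. Leaving out each mouse gave 5 to 6, 3 to 4, 5 to 6 and 6 to 8 genes from 4.5 to 20, 4.5 to 9, 9 to 14.5 and 14.5 to 20 months, and 65 to 69 over all pairs. The change of Gja1 in development was -0.058 without quantile normalization, and that of S100b from 4.5 to 9 months was 0.31 as the mean over its probe sets, and the cause was not tested for either. From 14.5 to 20 months Etnppl passed the test with an offset of 50, with the filter at the 60th percentile and in a fit of those ages alone. Replicate numbers did not pair the mice, as 0 of 15 pairs of equal number deviated together (r above 0.1, range -0.11 to 0.05) and 2 of 15 correlated best with their own number. With the replicate number as a block, where wt mouse 4 at 10 days stands alone, 10 genes were called in development, 5 from 4.5 to 20 months and 68 over all pairs, as without it, and none between Tg and wt. The change of Etnppl from its low signal at 10 days is the one that low signal limits most.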

Other observations

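Markers of other cells give the setting of the astrocyte changes. From 10 days to 4.5 months all 8 tested markers of oligodendrocytes rose, with a median of 3.18 on the log2 scale, and 4 of 5 markers of their precursors fell. Over the same interval 7 of 10 neuronal markers rose and 2 fell, while 31.2% of all genes rose and 35.5% fell. From 4.5 to 20 months no oligodendrocyte marker changed and 5 of 10 neuronal markers fell. Among all genes 22.4% rose and 19.9% fell over that interval. Of the 6 ependymal genes, 4 rose from 4.5 to 20 months, among them Rarres2 by 1.74 ± 0.22 and Tmem212 by 1.63 ± 0.28, both chosen as the smallest p of that list. Choroid plexus markers varied among mice of 1 age more than the other marker lists, with a mean log2 signal of 5.18 to 11.1 at 4.5 months, and none of the 8 tested was called in either interval.

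Among the channels and anchors near Aqp4, Aqp11 rose by 0.54 ± 0.12 in development, when Aqp4 fell, and fell by 0.57 ± 0.13 from 4.5 to 20 months, when Aqp4 rose. Among all genes 31.2% rose and 35.5% fell in development, and 22.4% rose and 19.9% fell from 4.5 to 20 months. The dystrophin complex holds Aqp4 at the endfeet. Of 9 tested genes of this complex, 3 rose and 4 fell in development, and 2 rose and 2 fell from 4.5 to 20 months. Of these Agrn, which encodes the basement membrane protein agrin, fell by 0.80 ± 0.08 and then by 0.32 ± 0.08, and Sntb2, a syntrophin, rose by 1.45 ± 0.14 in development. Among 10 tested connexin and pannexin genes, Gja1 and Gjb6 included, 6 rose and 4 fell in development. There Gjb1, the connexin of oligodendrocytes, rose by 3.89 ± 0.25 and Gjd2, the connexin of neurons, fell by 1.91 ± 0.12.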
